A study of Mus musculus with 2 samples.

Results

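Aquaporins are membrane channels for water, and some of them also pass glycerol. Their transcripts were measured in mouse subcutaneous fat, the white adipose depot under the skin. The 9 genes described here, Aqp1, Aqp2, Aqp3, Aqp4, Aqp5, Aqp7, Aqp8, Aqp9 and Aqp11, were found by gene symbol among 43346 annotated genes. A further 3 genes of the family, Mip, Aqp6 and Aqp12, are given for completeness. The series holds 1 group, subcutaneous fat pads of C57BL/6J littermates aged 8 weeks, with no treatment or engineered allele named, and each label calls the tissue a pool of males and females. It was sequenced as replicate 2 and replicate 1, which the labels number as biological replicates under the same donor record. Ribosomal RNA was depleted and polyA+ RNA longer than 200 nt was read as stranded pairs of 76 nt.

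An aquaporin folds its chain into a bundle of membrane helices around a single pore, and 2 short loops meet inside the pore, each carrying a signature of asparagine, proline and alanine (the NPA box). Orthodox aquaporins pass water, aquaglyceroporins pass water and glycerol, and an unorthodox branch that includes Aqp11 lies inside the cell and has altered boxes. In fat, lipolysis splits triglyceride into fatty acids and glycerol. Adipocytes have little glycerol kinase and release most of that glycerol, and Aqp7 is the best known channel for it, while Aqp1 is the water channel of capillary endothelium and red cells.

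The pore boxes are shown because they set Aqp7 and Aqp11 apart, at the level of sequence, from the other members whose boxes were read. The boxes of Aqp4 were not read. Each line holds 45 coding bases read from the GENCODE M21 transcripts on GRCm38, with the 3 codons of the box in capitals. They belong to the 3 genes with at least 1 TPM (the deposited transcript abundance, corrected for transcript length and library size) in both libraries and to Aqp3, the second aquaglyceroporin.
Aqp7 box 1: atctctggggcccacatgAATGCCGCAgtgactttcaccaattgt
Aqp7 box 2: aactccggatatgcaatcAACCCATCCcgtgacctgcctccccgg
Aqp3 box 1: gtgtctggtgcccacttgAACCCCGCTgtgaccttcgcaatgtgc
Aqp3 box 2: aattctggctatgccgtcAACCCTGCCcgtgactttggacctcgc
Aqp1 box 1: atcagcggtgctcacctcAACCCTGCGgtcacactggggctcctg
Aqp1 box 2: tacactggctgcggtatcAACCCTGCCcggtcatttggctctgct
Aqp11 box 1: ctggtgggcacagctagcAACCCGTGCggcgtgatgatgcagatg
Aqp11 box 2: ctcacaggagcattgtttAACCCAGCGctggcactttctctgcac

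Aqp7 codes for NAA at codon 79 and NPS at codon 211, so neither of its boxes reads NPA. Its first window joins exons 4 and 5 (minus strand, chr4:41035593-41036020, intron included) and its second lies in exon 7 (chr4:41034795-41034839). A further NAA triplet at codon 288 stands near the end of its 303 codons. Aqp3 has NPA at codons 83 and 215. The window of the first joins exons 2 and 3 (chr4:41094801-41095151, minus strand, intron included), and that of the second lies in exon 5 (chr4:41093823-41093867). Aqp1 has NPA at codons 76 and 192, in exon 1 (chr6:55336698-55336742, plus strand) and exon 3 (chr6:55345819-55345863). Aqp11 has NPC at codon 99 in exon 1 (chr7:97737667-97737711, minus strand) and NPA at codon 216 in exon 2 (chr7:97729035-97729079). Aqp2, Aqp5, Aqp8 and Aqp9 each had 2 NPA boxes and no NAA, NPS or NPC triplet in their leading transcript.

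The libraries held 58687668 estimated counts in replicate 2 and 54752739 in replicate 1, of which spike-in and control sequences took 2.02% in replicate 2 and 2.10% in replicate 1. The tissue label was checked with 12 genes listed as white adipocyte markers, such as the hormone adiponectin (Adipoq) and the fatty acid carrier Fabp4. All 12 had at least 1 TPM in both libraries, as did 55.5% of protein-coding genes. The 12 markers summed to 42559 TPM in replicate 2 and 19890 TPM in replicate 1. The libraries were not alike in other markers. A list of 12 genes of glandular epithelium summed to 16.1 TPM in replicate 2 and 868 TPM in replicate 1, and 11 genes of the uterus summed to 39.2 TPM in replicate 2 and 735 TPM in replicate 1. The pool label also met a conflict, since 4 genes of the Y chromosome together had 4 counts in replicate 2 and 6 counts in replicate 1. Every result below is therefore given for each library, and what it was without the other library can be read from it directly.

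Levels are deposited TPM, a relative abundance corrected for transcript length, with the mean ± SD over the 2 libraries where a mean is given. Ratios are of expected counts scaled with TMM factors (0.837 in replicate 2 and 1.20 in replicate 1), replicate 2 over replicate 1, with an exact 95% interval that covers counting error only. The term called is used for a gene with a mean scaled count of 10 or more whose interval lay wholly beyond 2-fold. Each side is 1 library, so there is no test, and a difference between replicates is no effect of a condition. In tissue RNA, fewer cells of a type and less RNA per cell cannot be told apart.

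The aquaporins summed to 1178 TPM in replicate 2 and 497 TPM in replicate 1 (837 ± 482, SD, n = 2). Aqp1 took 83.6% of that sum in replicate 2 and 82.4% in replicate 1. The 3 aquaglyceroporins summed to 172 TPM in replicate 2 (14.6% of the family) and 44.1 TPM in replicate 1 (8.87%). Thus water channel transcripts made up most of the family in both libraries, and Aqp1, Aqp7 and Aqp11 together held 99.8% of it in replicate 2 and 95% in replicate 1.

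These 3 of the 9 genes passed 1 TPM in both libraries, a rule met by 29.4% of all annotated genes and by 55.5% of the 21474 protein-coding ones. With the deposited posterior mean TPM 4 genes passed, the additional one being Aqp9 with 1.27 TPM in replicate 2 and 2.73 TPM in replicate 1. By deposited TPM replicate 2 had 3 aquaporins at 1 TPM or more and replicate 1 had 7, the additional ones being Aqp5, Aqp3, Aqp8 and Aqp9. Of all 43346 annotated genes, 13076 reached 1 TPM in replicate 2 and 14762 in replicate 1. By mean level the order was Aqp1, Aqp7, Aqp11, Aqp5, Aqp3, Aqp8, Aqp9, Aqp2 and Aqp4. The ranges of the 2 libraries did not overlap between Aqp1 and Aqp7, Aqp7 and Aqp11, Aqp11 and Aqp5, or Aqp9 and Aqp2. From Aqp5 down to Aqp9, and from Aqp2 to Aqp4, each gene's range overlapped that of its neighbour, so their order is not fixed by these libraries.

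**Figure D1:**
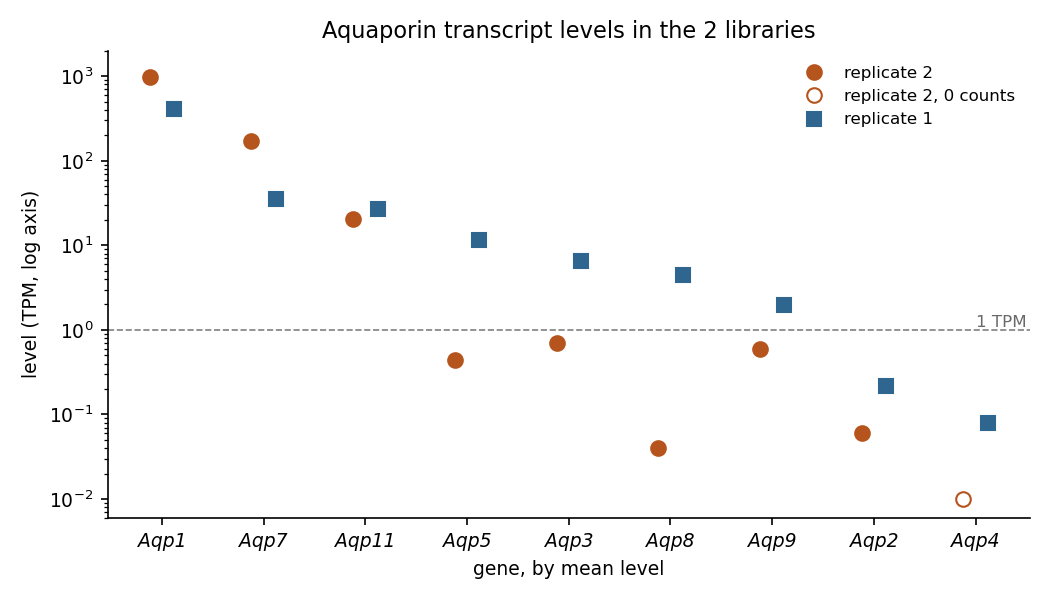
Level of each aquaporin in TPM on a log axis, with circles for replicate 2 on the left and squares for replicate 1 on the right of each gene; the open circle marks Aqp4, which had 0 counts in replicate 2 and is drawn at the foot of the axis. Aqp1, Aqp7 and Aqp11 lie above the dashed line at 1 TPM in both libraries, and Aqp5, Aqp3, Aqp8 and Aqp9 lie above it in replicate 1 alone.

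Aqp7, the glycerol channel of the adipocyte, had 171 TPM from 17303 counts in replicate 2 and 35.6 TPM from 3094 counts in replicate 1 (103 ± 95.7 TPM, SD, n = 2). It ranked 699 by level among annotated genes in replicate 2 and 4191 in replicate 1. The scaled count ratio was 7.45 (interval 7.17 to 7.74), a log2 ratio of 2.90, and it was called higher in replicate 2. The gene (ENSMUSG00000028427.9) spans 15.1 kb on the minus strand of chr4:41033074-41048139. Aqp7 made up 99.2% of the aquaglyceroporin level in replicate 2 and 80.7% in replicate 1. The TPM of Aqp1, the channel with the highest level, was 5.76 times that of Aqp7 in replicate 2 and 11.5 times in replicate 1.

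Aqp3, an aquaglyceroporin best known from kidney collecting duct and skin epidermis, had 0.710 TPM from 20 counts in replicate 2 and 6.52 TPM from 276 counts in replicate 1 (3.61 ± 4.11 TPM, SD, n = 2). Its scaled counts were 10.4 times higher in replicate 1 (interval 6.58 to 17.2), a log2 ratio of -3.37. Aqp3 and Aqp7 are neighbours on chromosome 4, 44.6 kb apart and on the same strand, and they were called in opposite directions. Aqp3 lies at chr4:41092722-41098183.

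Aqp9, the aquaglyceroporin through which liver takes up glycerol and which neutrophils also carry, had 0.60 TPM from 45 counts in replicate 2 and 1.98 TPM from 108 counts in replicate 1 (1.29 ± 0.976 TPM, SD, n = 2). Its scaled counts were 1.80 times higher in replicate 1 (interval 1.26 to 2.61), which is not wholly beyond 2-fold and was not called. The gene lies on the minus strand at chr9:71110659-71168682 and overlaps a pseudogene and an antisense gene of the newer annotation on the other strand, for which the tables hold no value.

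Among the water channels, Aqp1 had 984 TPM from 104698 counts in replicate 2 and 409 TPM from 37153 counts in replicate 1 (697 ± 406 TPM, SD, n = 2). It ranked 103 in replicate 2 and 293 in replicate 1 among annotated genes. The scaled count ratio was 3.75 (interval 3.71 to 3.80), a log2 ratio of 1.91, and it was called higher in replicate 2. Aqp1 (ENSMUSG00000004655.5) lies on the plus strand at chr6:55336432-55348555 and has a single annotated transcript in the tables.

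Aqp5, the water channel of the secretory cells of salivary and lacrimal glands, had 0.440 TPM from 26 counts in replicate 2 and 11.6 TPM from 576 counts in replicate 1 (6.03 ± 7.91 TPM, SD, n = 2). Its scaled counts were 16.6 times higher in replicate 1 (interval 11.2 to 25.7), a log2 ratio of -4.06. Aqp8, a channel of several glandular and gut epithelia, had 0.0400 TPM from 2 counts in replicate 2 and 4.41 TPM from 211 counts in replicate 1 (2.23 ± 3.09 TPM, SD, n = 2). Its fold of 79.2 in favour of replicate 1 rests on those 2 counts and has an interval of 21.7 to 658. Both genes thus had well over 100 counts in replicate 1. In replicate 2 Aqp5 was low but above its 3-count floor of 0.0510 TPM, and Aqp8 was below its floor of 0.0536 TPM. Aqp5 lies at chr15:99590782-99594829 and Aqp8 at chr7:123462291-123468004, both on the plus strand.

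Aqp2, the vasopressin-regulated channel of the kidney collecting duct, had 0.0600 TPM from 3 counts in replicate 2 and 0.220 TPM from 10 counts in replicate 1. Aqp4, the channel of astrocytes, had 0 counts in replicate 2, which allows a level of up to 0.0140 TPM, and 0.0800 TPM from 14 counts in replicate 1. Both had a mean scaled count of 6.13 and were not compared. Aqp4 overlaps an antisense gene of the newer annotation, for which the tables hold no value. Aqp2 lies 6.23 kb from Aqp5 and Aqp5 lies 6.57 kb from Aqp6 on chromosome 15. Of these neighbours Aqp6 had 0 counts in both libraries, which allows up to 0.0369 TPM in replicate 2 and 0.0432 TPM in replicate 1. Mip, the channel of the eye lens, had 0 counts in both libraries as well (up to 0.0353 TPM in replicate 2 and 0.0413 TPM in replicate 1). Aqp12 had 0 counts in replicate 2 and 5 in replicate 1.

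Aqp11, known from the endoplasmic reticulum of kidney proximal tubule cells, had 20.8 TPM from 1012 counts in replicate 2 and 26.8 TPM from 1116 counts in replicate 1 (23.8 ± 4.26 TPM, SD, n = 2). It was the only member with both libraries above 1 TPM that was not called in either direction. Its scaled count ratio was 1.21 (interval 1.11 to 1.32), a log2 ratio of 0.27. The sign depended on the scale, with -0.24 under total count scaling, -0.18 under spike-in scaling and -0.37 on the log2(TPM + 0.1) scale. The TPM of Aqp7 was 8.23 times that of Aqp11 in replicate 2 and 1.33 times in replicate 1. The gene (ENSMUSG00000042797.8) lies on the minus strand at chr7:97724006-97738289. Its level was deposited for a transcript model of 1322 bases, while the complete model of the newer annotation has 3737 bases.

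Of the 9 genes, 7 could be compared between the libraries. Aqp1 and Aqp7 were called higher in replicate 2, a call made for 9.95% of the 17180 genes compared. Aqp3, Aqp5 and Aqp8 were called higher in replicate 1, a call made for 14.3% of those genes. Aqp9 and Aqp11 were not called in either direction. The interval of Aqp9 crossed 2-fold. Its log2 ratio of -0.85 became -1.36 under total count scaling and -1.31 under spike-in scaling. The median log2 ratio over the 7 was -0.85, beside 0.01 over all genes compared. Under TMM 1709 genes were higher in replicate 2 and 2462 in replicate 1. Total count scaling, which lowers every log2 ratio by 0.51, gave 740 genes higher in replicate 2 and 4038 in replicate 1. Spike-in scaling lowers them by 0.46 and gave 819 higher in replicate 2 and 3829 in replicate 1. The same 5 aquaporins were called in the same directions under each of these scalings.

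**Figure D2:**
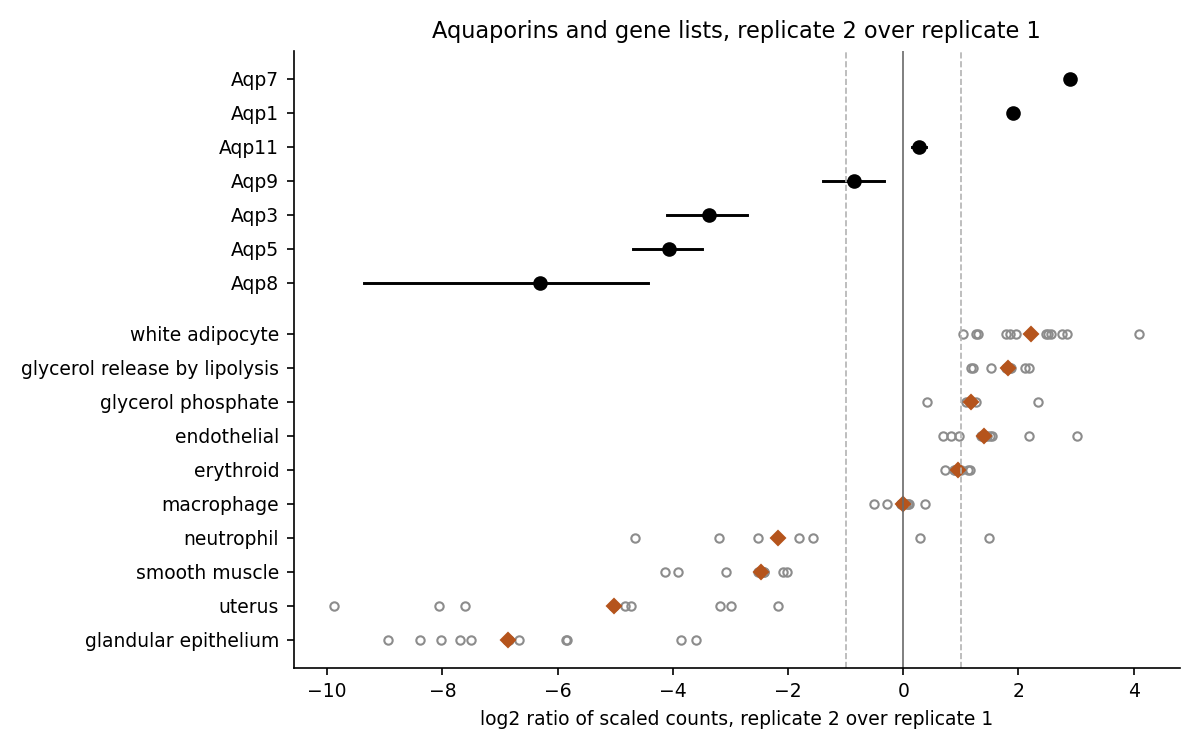
Log2 ratio of scaled counts, replicate 2 over replicate 1, for the 7 compared aquaporins (black points with 95% counting intervals) and for the genes of 10 lists (open circles, with the median as a diamond; a gene at 0 in a library has no circle and enters the median at its bound of 3 counts). Dashed lines mark 2-fold. Aqp7 and Aqp1 lie on the right, as do the medians of the adipocyte, lipolysis, glycerol phosphate, endothelial and erythroid lists. Aqp3, Aqp5 and Aqp8 lie on the left, as do the medians of the neutrophil, smooth muscle, uterus and glandular epithelium lists. The macrophage median was 0.00.

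The enzymes of lipolysis, which frees glycerol, and their regulators were examined next. All 8 genes of glycerol release by lipolysis had at least 1 TPM in both libraries, and all 8 were called higher in replicate 2, with log2 ratios of 1.18 to 2.19 and a median of 1.82; they summed to 7521 TPM in replicate 2 and 3278 TPM in replicate 1. Under total count scaling 5 of the 8 were called, without Abhd5, Adrb3 and Pde3b, and under spike-in scaling 6 were, without Abhd5 and Pde3b. The adipose triglyceride lipase Pnpla2 had 2462 TPM in replicate 2 and 1073 TPM in replicate 1. Hormone-sensitive lipase (Lipe), which acts on diglycerides, had 1112 TPM in replicate 2 and 381 TPM in replicate 1. Mgll, the monoglyceride lipase that frees the glycerol, had 899 TPM in replicate 2 and 349 TPM in replicate 1. Each of these enzymes was well above Aqp7 in TPM, and none reached its log2 ratio of 2.90.

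Plin1, which coats the lipid droplet and restrains lipolysis, had 1246 TPM in replicate 2 and 560 TPM in replicate 1. Adrb3, the adrenergic receptor that switches lipolysis on, had 875 TPM in replicate 2 and 482 TPM in replicate 1. The lipase inhibitor G0s2 had 773 TPM in replicate 2 and 329 TPM in replicate 1. Under TMM scaling, genes that start and genes that restrain lipolysis were thus called the same way. The lipase activator Abhd5 had 101 TPM in replicate 2 and 71.0 TPM in replicate 1. Pde3b, through which insulin lowers cyclic AMP, had 53.1 TPM in replicate 2 and 31.2 TPM in replicate 1.

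Of the 5 genes of glycerol phosphorylation and glycerol phosphate, 4 had at least 1 TPM in both libraries and 3 were called higher in replicate 2. Their median log2 ratio was 1.17, and under total count or spike-in scaling 1 gene, Pck1, was called. Glycerol kinase (Gk) had 1.64 TPM from 231 counts in replicate 2 and 0.940 TPM from 145 counts in replicate 1. Its scaled count ratio of 2.12 (interval 1.72 to 2.63) was not called. Aqp7 was thus present at far higher TPM than the kinase that would trap glycerol in the cell. Gpd1, the cytosolic glycerol phosphate dehydrogenase, had 912 TPM in replicate 2 and 631 TPM in replicate 1. Pck1, which makes the precursor of glycerol phosphate from oxaloacetate, had 298 TPM in replicate 2 and 90.0 TPM in replicate 1, and its log2 ratio of 2.34 was the highest of the list. The mitochondrial dehydrogenase Gpd2 had 28.1 TPM in replicate 2 and 18.4 TPM in replicate 1 and was called under TMM scaling. Gpd1l, a relative of Gpd1, had 21 TPM in replicate 2 and 24.7 TPM in replicate 1 and was not called.

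**Figure D3:**
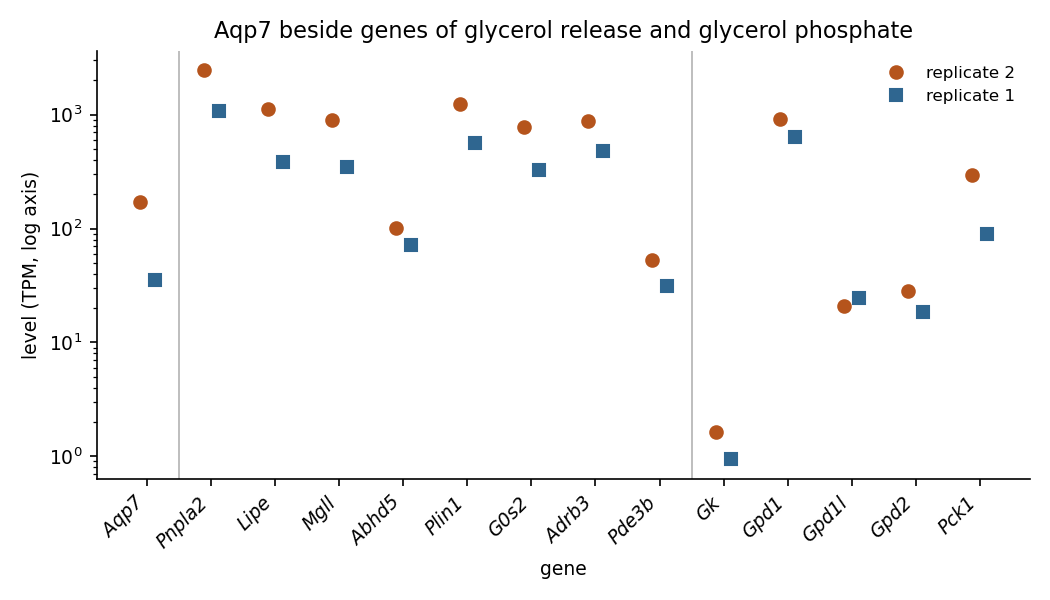
Level in TPM on a log axis of Aqp7, the 8 genes of glycerol release by lipolysis and the 5 genes of glycerol phosphorylation and glycerol phosphate, with circles for replicate 2 on the left and squares for replicate 1 on the right of each gene. Every gene but Gpd1l was higher in replicate 2 in TPM, and Gk, at 1.64 TPM in replicate 2 and 0.940 TPM in replicate 1, was the lowest in each library.

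Some cell type lists were higher in replicate 2, some in replicate 1, and some in neither or in both. Their part in the aquaporin ratios was not tested. All 12 white adipocyte markers were called higher in replicate 2, with log2 ratios of 1.03 to 4.10, a median of 2.22 and no gene at 0. Under total count and spike-in scaling 9 of the 12 were called, without Cfd, Slc2a4 and Cebpa. The complement factor Cfd led them with 16533 TPM in replicate 2 and 12566 TPM in replicate 1. Fabp4 had 6723 TPM in replicate 2 and 1890 TPM in replicate 1. The lipoprotein lipase Lpl had 5362 TPM in replicate 2 and 1175 TPM in replicate 1. The lipid droplet protein Cidec, the fourth by level, had 4634 TPM in replicate 2 and 1123 TPM in replicate 1, so each of these leading markers was higher in replicate 2 as Aqp7 was. The log2 ratio of Aqp7 was passed by 1 of the 12, the leptin gene Lep, and that of Aqp1 by 7. Relative to the summed adipocyte markers, Aqp7 stood at 0.402% in replicate 2 and 0.179% in replicate 1, but Cfd, the marker with the smallest ratio, carries much of that sum. Without Cfd the share of Aqp7 was 0.657% in replicate 2 and 0.486% in replicate 1. Aqp1 stood at 2.31% of the full sum in replicate 2 and 2.06% in replicate 1, and without Cfd at 3.78% in replicate 2 and 5.59% in replicate 1, so that the direction turned. Plin1 is in both the adipocyte and the lipolysis lists.

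Of 12 endothelial markers, 9 were called higher in replicate 2 and none in replicate 1, and the median log2 ratio was 1.41. These calls depended on the scaling: 2 of the 12, Gpihbp1 and Cldn5, were called under total count scaling and 4 under spike-in scaling. They summed to 2376 TPM in replicate 2 and 1067 TPM in replicate 1. Aqp1 amounted to 41.4% of that sum in replicate 2 and 38.4% in replicate 1. Without Egfl7 it amounted to 57.2% in replicate 2 and 58.8% in replicate 1. These shares are close, and Gpihbp1, with the highest log2 ratio of the list (3.01), stayed in both sums. The direction of the Aqp1 share is therefore not fixed. The highest by mean was Egfl7, with 656 TPM in replicate 2 and 370 TPM in replicate 1. Gpihbp1, the capillary anchor of lipoprotein lipase, had 725 TPM in replicate 2 and 144 TPM in replicate 1. Red cell transcripts, another setting in which Aqp1 is known, summed to 3921 TPM over 6 genes in replicate 2 and 2914 TPM in replicate 1. Of these 6, 2 were called higher in replicate 2 and none in replicate 1, and their median log2 ratio was 0.95. None was called under total count or spike-in scaling. Aqp1 amounted to 25.1% of the red cell sum in replicate 2 and 14.1% in replicate 1.

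All 12 genes of glandular epithelium were called higher in replicate 1 under each of the 4 scalings, with log2 ratios of -8.95 to -3.59 and a median of -6.86. The keratin Krt19 had 10.3 TPM in replicate 2 and 223 TPM in replicate 1, and Krt8 had 1.87 TPM in replicate 2 and 169 TPM in replicate 1. The log2 ratio of Aqp8, -6.31, lay inside that span, as did that of Aqp5, -4.06, while that of Aqp3, -3.37, lay just outside it. Aqp5 amounted to 2.74% of the list's sum in replicate 2 and 1.34% in replicate 1, and Aqp8 to 0.249% in replicate 2 and 0.508% in replicate 1. In replicate 2 these shares rest on 26 counts of Aqp5 and 2 counts of Aqp8, so the direction of the Aqp8 share is not fixed. Aqp3 amounted to 4.42% in replicate 2, from 20 counts, and 0.751% in replicate 1. Without Krt19 the other 11 genes summed to 5.73 TPM in replicate 2 and 645 TPM in replicate 1. Aqp3 then amounted to 12.4% in replicate 2 and 1.01% in replicate 1. All 11 uterus markers were also called higher in replicate 1, with a median of -5.02 when Foxa2, at 0 counts in replicate 2, is set to its bound of 3 counts. All 8 smooth muscle markers were called higher in replicate 1 too, with a median of -2.47 and sums of 684 TPM in replicate 2 and 6074 TPM in replicate 1.

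For the epidermis, where Aqp3 is abundant, the markers were mixed. The 10 of them summed to 45.2 TPM in replicate 2 and 39.7 TPM in replicate 1. Aqp3 amounted to 1.57% of that sum in replicate 2 and 16.4% in replicate 1. Most of the sum was Sbsn, with 31.3 TPM in replicate 2 and 17.8 TPM in replicate 1, and without it the other 9 summed to 13.9 TPM in replicate 2 and 21.9 TPM in replicate 1, in the opposite direction. Of 7 compared, Sbsn was called higher in replicate 2 (log2 ratio 1.78), and Krt5 (-5.29) and Lor (-4.29) in replicate 1. Dmkn (0.77), Trp63 (0.26), Krt10 (-0.16) and Sfn (-0.75) were not called. Krt1 and Ivl had 0 counts in replicate 2, and in replicate 1 Krt1 had 5 counts and Ivl had 16. For Aqp9, the neutrophil list summed to 13.3 TPM in replicate 2 and 134 TPM in replicate 1. Without Retnlg it summed to 10.6 TPM in replicate 2 and 27.7 TPM in replicate 1. Of the 8 genes, 5 were called higher in replicate 1, while S100a9 (log2 ratio -1.81), S100a8 (0.29) and Elane (1.49) were not called. The median log2 ratio was -2.17 with Ly6g (0 counts in replicate 2) at its bound. The 8 macrophage markers summed to 1034 TPM in replicate 2 and 1446 TPM in replicate 1. Their median log2 ratio was 0.00, and none was called in either direction. The 10 skeletal muscle genes summed to 140 TPM in replicate 2 and 250 TPM in replicate 1, and 6 were compared, of which 1 was called higher in replicate 2 and 3 had the opposite call. For nerve, the 6 Schwann cell and nerve genes summed to 44.4 TPM in replicate 2 and 28.0 TPM in replicate 1, and 2 were called higher in replicate 2 and 1 in replicate 1.

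Transcript use was read from IsoPct, the deposited share of a gene's TPM that each of its transcripts takes. Aqp7 has 4 quantified transcripts, and the full-length coding form Aqp7-201 took 98.9% in replicate 2 and 100% in replicate 1. The coding form Aqp7-202, whose start lies further downstream, took 0.330% in replicate 2 from 48.3 counts and had 0 counts in replicate 1. Nearly all of the Aqp7 level therefore came from a single transcript whose codons include both pore boxes shown above. Aqp8-201 was given 100% in both libraries, but in replicate 2 that share rests on 2 counts. By posterior means it took 58.3% in replicate 2 and 95.5% in replicate 1.

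Aqp3 was divided between its coding transcript and a short retained-intron model. The coding Aqp3-201 took 33.7% in replicate 2 and 68.8% in replicate 1, and the retained-intron Aqp3-202 took 66.3% in replicate 2 and 31.2% in replicate 1. In replicate 2 those shares rest on 16.2 counts for the coding form and 3.76 for the intron model, which is 401 bases long. The coding form alone had 0.240 TPM in replicate 2 and 4.49 TPM in replicate 1. The Aqp3 gene level in replicate 2 thus overstates its coding transcript.

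Aqp5 was divided in replicate 1 between its coding transcripts, with 89.5% for Aqp5-202 and 10.6% for Aqp5-201. The deposited bounds of Aqp5-201 there ran from 0.000101 to 4.01 TPM, so its use is not settled. In replicate 2 Aqp5-202 took 100%, which rests on 26 counts. By posterior means Aqp5-202 took 74.0% in replicate 2 and 84.2% in replicate 1. Of 10 Aqp9 transcripts, the coding Aqp9-202 took 67.0% in replicate 2 and 55.9% in replicate 1. By posterior means its share was 18.8% in replicate 2 and 34.2% in replicate 1, so the share depends on the estimate used. By IsoPct the rest went to short non-coding models, among them Aqp9-205, with 1 count and 18.1% of the level in replicate 2 and 7 counts and 44.1% in replicate 1. Coding Aqp9 had 0.40 TPM in replicate 2 and 1.1 TPM in replicate 1.

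**Figure D4:**
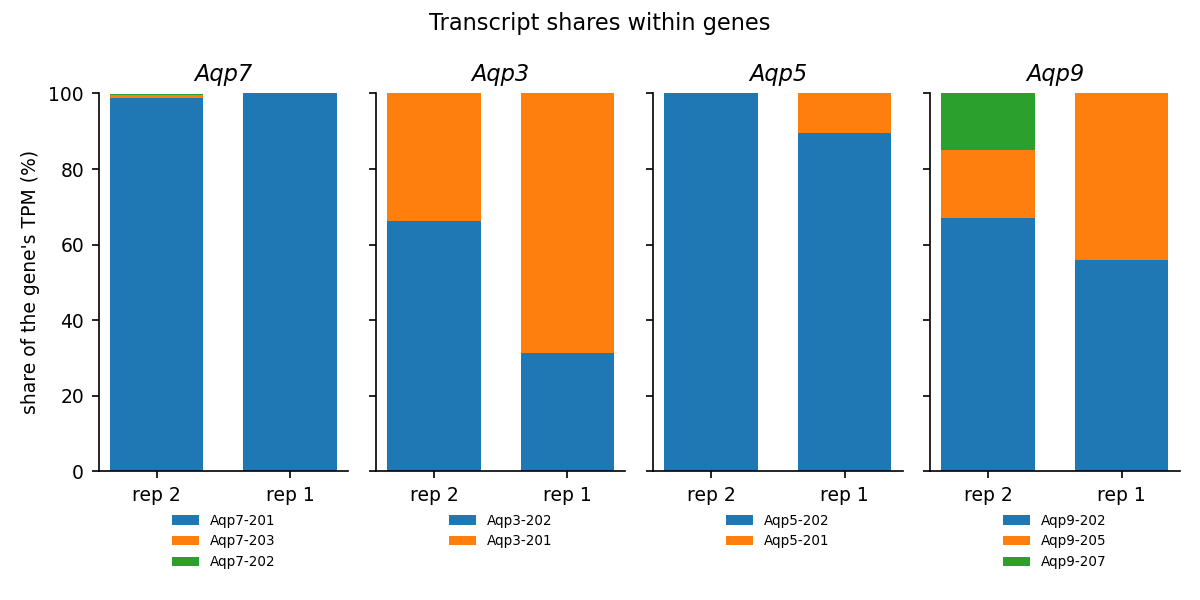
Share of the gene's TPM in percent taken by each transcript of Aqp7, Aqp3, Aqp5 and Aqp9, with replicate 2 left of replicate 1; transcripts at 0 in both libraries are not drawn. Aqp7-201 fills both bars of Aqp7 almost wholly, whereas the retained-intron Aqp3-202 takes 66.3% in replicate 2 and 31.2% in replicate 1.

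Promoters are shown for Aqp7 and Aqp1, the pair called higher in replicate 2. PPARγ, a nuclear receptor that directs adipocyte genes, binds with its partner to DR1 elements, 2 half-sites spaced by a single base. The bases before the annotated start were taken from RefSeq (GRCm38.p6), with the half-site AGGTCA or its complement TGACCT in capitals.
Aqp7 (minus strand, chr4:41048140-41048386): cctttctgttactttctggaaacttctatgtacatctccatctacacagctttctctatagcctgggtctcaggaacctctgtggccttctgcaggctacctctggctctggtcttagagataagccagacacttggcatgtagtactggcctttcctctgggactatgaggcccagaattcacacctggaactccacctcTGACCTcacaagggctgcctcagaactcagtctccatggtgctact
Aqp1 (plus strand, chr6:55336049-55336298): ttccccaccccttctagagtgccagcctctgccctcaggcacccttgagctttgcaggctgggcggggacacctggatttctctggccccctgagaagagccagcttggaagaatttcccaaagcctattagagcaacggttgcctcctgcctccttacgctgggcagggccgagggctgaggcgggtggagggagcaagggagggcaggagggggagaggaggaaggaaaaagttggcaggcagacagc

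The letters AGGTCANAGGTCA, searched on both strands, were in 13 of 32851 RefSeq promoters of 300 bases (0.0396%) and in none of the aquaporin promoters examined. An exact match is so rare that its absence here cannot show that a DR1 element is lacking. Imperfect matches were not searched. The half-site AGGTCA was in 16.3% of all promoters. Aqp7 had it once before its start, beginning 46 bases from the 5′ end of Aqp7-201, and Aqp1 had none. The window of a further RefSeq start, 177 bases inside Aqp7-201, held 2, of which that match is 1. Aqp11, which was called in neither direction, also had the half-site, 230 bases before its RefSeq start. A match in these letters is a description and shows no bound factor. The Aqp1 start in RefSeq lies 133 bases upstream of the 5′ end of the quantified transcript.

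The protein-coding genes nearest to Aqp7 were sought by distance over the 2 log2(TPM + 0.1) values. Fam213b came nearest at a distance of 0.134, with 180 TPM in replicate 2 and 38.5 TPM in replicate 1. The mitophagy receptor Bnip3 followed at 0.147, with 176 TPM in replicate 2 and 39.2 TPM in replicate 1. Angiotensinogen (Agt) lay at 0.148, with 154 TPM in replicate 2 and 35.2 TPM in replicate 1. Within a distance of 0.25 there were 4 such genes. For Aqp1 the nearest was the calcium-binding S100a11 at 0.0978, with 1026 TPM in replicate 2 and 432 TPM in replicate 1. Rgcc lay at 0.201, with 880 TPM in replicate 2 and 377 TPM in replicate 1, and Lipe at 0.204, with 5 genes within 0.25 in all. A distance over 2 libraries is a description of these libraries only.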

How the data were processed

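Expected counts, in which the authors' program divided reads among features, TPM and FPKM were deposited per gene and transcript, with IsoPct in percent per transcript, and with credibility bounds as other columns. The sources used here do not name that program. Per the notes deposited with them, the tables used mm10 and GENCODE M4. Identifiers were matched to GENCODE M21 (GRCm38) without version, which gave symbols for 42462 of 43346 annotated genes. tRNA features and 97 spike-in or control sequences stayed out of library sizes. Junction and contig tables on another build were not used here.

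Expected counts were rounded and scaled with TMM factors (edgeR 4.0.16, R 4.3.3) or DESeq2 1.42.0 size factors. Intervals are exact Clopper-Pearson (scipy 1.17.1) at 95%, and 3 counts set the floor. Both cover counting error only and no variation between animals or libraries. The reads carry no stated molecular identifiers, so counts may include repeat reads of the same molecule. With 1 library a side there is no test and no p-value. The members and lists were chosen with earlier results of these data known, and the Y chromosome genes were added later as a label check. Named genes are all members, the other family genes and both glycerol lists. Also named are up to 4 genes of highest mean TPM in each list and the 3 nearest genes of Aqp7 and Aqp1. Adipoq, Lep and all of the epidermis list were named after their values were seen. So were genes singled out by a call, the lack of a call or a count of 0. The calling rule was tested on simulated counts. A listed marker gene is not reported here.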

Additional observations from a re-analysis of the deposited data

How the results depend on the processing

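With the threshold at 0.5 TPM in place of 1, 5 members passed in both libraries, Aqp3 and Aqp9 in addition to Aqp1, Aqp7 and Aqp11. The count over a single library ranged from 3 without replicate 1 to 7 without replicate 2. Over all annotated genes, 13076 passed 1 TPM in replicate 2 and 14762 in replicate 1. By posterior mean TPM 4 members passed. The shares of all genes at 0.5 TPM and by posterior mean are not given here. With the interval required to lie beyond 4-fold, 1 member, Aqp7, was higher in replicate 2, beside 2.17% of all genes compared. The 3 members higher in replicate 1, Aqp3, Aqp5 and Aqp8, kept that call, which 7.22% of genes had. DESeq2 size factors, total count, spike-in total and posterior mean counts each called the same 5 members. Over these settings the share of all genes called ran from 4.30% to 9.98% for replicate 2 and from 14.3% to 23.5% for replicate 1. With no count filter Aqp4 joined the members higher in replicate 1, a call then made for 11.5% of genes. At a mean scaled count of 100 Aqp8 left them, with 12.6% of genes called. The log2 ratio of Aqp7 ranged from 2.23 to 2.90 over the scales tried and that of Aqp1 from 1.26 to 1.91. Total count and spike-in scaling, tried for the lists after seeing the data, lowered their counts higher in replicate 2 most for the endothelial list, to 2 and 4 from 9. Transcript shares from posterior means moved most for Aqp9-202, to a mean of 26.5% from 61.4%. No paired analysis was possible because the single group has no second group to pair with. Depth limits Aqp2, Aqp4 and the values of Aqp8 in replicate 2.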
